A study of Mus musculus with 12 samples.

Results

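The transcripts followed here are those of 10 mouse genes of the NRF2 antioxidant response and of cystine import: Nfe2l2, Keap1, Nqo1, Hmox1, Gclc, Gclm, Slc7a11, Txnrd1, Srxn1 and Gsr. They were chosen by gene symbol, with earlier results of these data known, and every probe set annotated to exactly 1 of these symbols was kept. This gave 21 probe sets of the 45037 tested, and 10 genes of the 18193 that had a probe set of their own. Transcripts had been measured on Affymetrix GeneChip arrays in cultured primary mouse pancreatic cancer cells, with 3 arrays in each of 4 groups. All 4 groups carried Pdx1-Cre, which is active in pancreatic epithelium, and a Cre-activated LSL-K-ras G12D allele. The fl-CCs came from tumors with LSL-Trp53 fl/+, and the mt-CCs from tumors with LSL-Trp53 R172H/+. The study describes the fl-CCs as p53 null, so no group here was a control with wild-type p53. The other 2 groups were fl-CCs transfected with human p53 R175H, the counterpart of the mouse R172H mutant, or with its empty vector (EV). These transfected cells, but not the other 2 groups, were grown with G418 at 0.6 mg/ml. All cells grew in DMEM with 10% FBS and were taken at 60% confluency. Each genotype was 1 cell line, so the spread between 3 arrays does not hold the spread between tumors, and fl-CCs and mt-CCs may differ in more than p53. Trp53 itself was not analysed here.

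NRF2, the product of Nfe2l2, is a transcription factor that KEAP1 holds in the cytoplasm and hands to the proteasome until oxidants or electrophiles modify KEAP1. Freed NRF2 pairs with small MAF proteins on antioxidant response elements and raises genes for detoxification (Nqo1, Hmox1), glutathione synthesis and recycling (Gclc, Gclm, Gsr), peroxide repair (Txnrd1, Srxn1) and cystine import (Slc7a11). Slc7a11, the xCT subunit of the cystine/glutamate exchanger, is also a target of ATF4, the factor of the amino acid response, and mutant p53 has been described as a binding partner of NRF2. Pancreatic tumor cells with oncogenic K-ras are known to depend on this program for redox balance.

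Promoter sequence from RefSeq (GRCm38.p6; 250 bases before and 50 after each annotated start) was held for 7 of the 10 genes, and is shown for the 4 genes whose responses to mutant p53 the results turn on. Capitals mark matches, on either strand, to TGACNNNGC or TGAGNNNGC (cores of the antioxidant response element, searched as 2 separate strings) or to TGATGNAA (core of the ATF4 amino acid response element). Sequences run 5′ to 3′ along the coding strand.
Srxn1 (chr2:152105274-152105573, plus strand): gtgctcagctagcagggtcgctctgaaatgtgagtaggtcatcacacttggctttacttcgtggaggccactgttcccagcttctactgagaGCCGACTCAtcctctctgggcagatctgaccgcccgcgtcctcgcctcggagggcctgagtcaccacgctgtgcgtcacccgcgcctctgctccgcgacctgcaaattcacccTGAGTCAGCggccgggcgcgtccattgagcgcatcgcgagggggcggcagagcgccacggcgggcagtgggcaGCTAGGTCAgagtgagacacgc
Nqo1 (chr8:107403156-107403455, minus strand): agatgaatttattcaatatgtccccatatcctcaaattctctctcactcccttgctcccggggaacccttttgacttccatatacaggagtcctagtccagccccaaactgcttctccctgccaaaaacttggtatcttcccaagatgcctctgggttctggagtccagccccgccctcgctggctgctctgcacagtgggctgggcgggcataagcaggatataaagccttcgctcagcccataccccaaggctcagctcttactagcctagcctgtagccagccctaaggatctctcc
Slc7a11 (chr3:50443564-50443863, minus strand): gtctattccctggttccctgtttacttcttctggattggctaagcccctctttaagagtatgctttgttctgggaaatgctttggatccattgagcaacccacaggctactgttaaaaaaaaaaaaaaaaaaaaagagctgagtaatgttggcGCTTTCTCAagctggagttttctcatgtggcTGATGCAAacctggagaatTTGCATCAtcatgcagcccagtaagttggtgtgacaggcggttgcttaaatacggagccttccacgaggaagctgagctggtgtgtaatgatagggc
Gclm (chr3:122245307-122245606, plus strand): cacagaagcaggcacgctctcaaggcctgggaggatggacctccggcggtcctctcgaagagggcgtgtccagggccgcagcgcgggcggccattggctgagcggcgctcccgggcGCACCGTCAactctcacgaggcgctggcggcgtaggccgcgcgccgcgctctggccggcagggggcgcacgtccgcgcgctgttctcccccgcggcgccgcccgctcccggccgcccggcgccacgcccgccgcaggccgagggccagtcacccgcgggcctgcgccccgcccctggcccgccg
The Srxn1 window held 3 matches, of which TGAGTCAGC began 45 bases before the start. The Slc7a11 window held TGATGCAA 66 bases before the start and again, on the other strand, at 47 bases, besides 1 TGAGNNNGC match at 97 bases. Gclm held 1 TGACNNNGC match 134 bases before its start. Nfe2l2 and the middle of 3 Txnrd1 starts each held 1 match to the same core. No string searched occurred in the windows of Nqo1 and Keap1, which says nothing of elements farther out. Of 32851 promoter windows of this length, 12.4% held TGACNNNGC, 17.6% TGAGNNNGC and 3.97% TGATGNAA, so that a match is a description and not a site.

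Before the results, a few properties of the arrays bear on them. The values were log2 RMA, a background-corrected and quantile-normalized summary of each probe set, and ran from 1.71 to 14.6 with a median of 5.59 on every array. No 2 arrays held the same values, and correlations over all probe sets were 0.994 to 0.996 within groups and 0.959 to 0.990 between them. A level under log2 5 is called near background here. The 3′ minus 5′ difference of the Gapdh control probe sets, a measure of RNA integrity and labeling, was 0.99 to 1.10 log2 in p53 R175H and 0.61 to 0.88 in the other 3 groups. Its part in the p53 R175H results was not tested. Of 6 tumor epithelium markers, 5 were lower and 0 higher in mt-CCs against fl-CCs, beside 21.1% and 22.2% of all genes. Their summed linear level was 32270 to 34560 in mt-CCs and 49610 to 52480 in fl-CCs, while EV held 49100 to 51590 and p53 R175H 42660 to 43310. Of those 6 epithelium markers, 1 was higher and 2 were lower with p53 R175H than in EV, beside 15.3% and 15.1% of all genes. Of 9 fibroblast markers, 6 were higher in mt-CCs and 0 lower, beside 22.2% and 21.1% of all genes. Among these 6, Col1a2 and Dcn had means under log2 5 even in mt-CCs (4.67 and 4.96). The fibroblast sum was 1511 to 1547 in mt-CCs against 204.8 to 276.8 in fl-CCs, although Fap, Lum and Pdpn were near background on every array. EV (279.8 to 298.4) and p53 R175H (309.0 to 326.1) lay above fl-CCs and far below mt-CCs in that sum. Against fl-CCs, 1 of the 9 was higher in EV and 0 lower, beside 10.4% and 9.2% of all genes. In p53 R175H, 2 were higher than in fl-CCs and 0 lower, beside 12.5% and 11.5%. Between EV and p53 R175H, 0 of the 9 differed, beside 15.3% of all genes higher and 15.1% lower. At the probe set counted, all but Col1a1 were near background in both of these groups, so that the 0 says little. Of 7 macrophage and leukocyte markers, 5 were near background on every array, Ptprc and Adgre1 among them, and the sum was 313.3 to 320.1 in mt-CCs and 150.3 to 175.9 elsewhere. Only 1 of the 7, Cd68 (1.91 ± 0.12), was higher in mt-CCs and 0 were lower, beside 22.2% and 21.1% of all genes. Csf1r was not called there (-0.13 ± 0.10). All 4 endothelial markers were near background throughout. In such bulk RNA, fewer cells of a type and less RNA per cell cannot be told apart. The part of these markers in the differences between mt-CCs and fl-CCs was not tested.

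Mutant p53 was compared in both settings, in tumor-derived lines (mt-CCs minus fl-CCs) and after transfection (p53 R175H minus EV), and the controls were compared with each other (EV minus fl-CCs). Differences are log2 ± SE from a limma fit over all 12 arrays, with p-values adjusted over all 45037 probe sets by the Benjamini-Hochberg method and called at 0.05. For the counts, each gene was represented by whichever of its probe sets had the lowest adjusted p. Of the 10 genes, 2 were higher in mt-CCs (Nqo1, Srxn1), beside 22.2% of all genes, and 6 were lower (Nfe2l2, Hmox1, Gclc, Gclm, Slc7a11, Gsr), beside 21.1% of all genes. Their median difference was -0.47 and that of all genes -0.01. With p53 R175H, 3 were higher than in EV (Nqo1, Gclm, Srxn1), beside 15.3% of all genes, and 3 were lower (Hmox1, Gclc, Slc7a11), beside 15.1%; the median was -0.06 and that of all genes -0.03. EV was itself below fl-CCs for 4 genes (Nqo1, Gclc, Gclm, Srxn1), beside 9.2% of all genes, and above for 0, beside 10.4%. Because of that, p53 R175H was also set against the parental fl-CCs, a comparison added after these values had been seen: 0 genes were higher, beside 12.5% of all genes, and 3 were lower (Gclc, Slc7a11, Gsr), beside 11.5%. These comparisons share control arrays, so their values stand side by side and their overlap is not read as support. The difference between the effects in both settings, tested in the same fit, was negative for 4 genes (Nfe2l2, Gclm, Gsr and, only at a probe set near background in EV, Srxn1), beside 19.3% of all genes, and positive for 1 (Slc7a11), beside 20.1%.

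**Figure D1:**
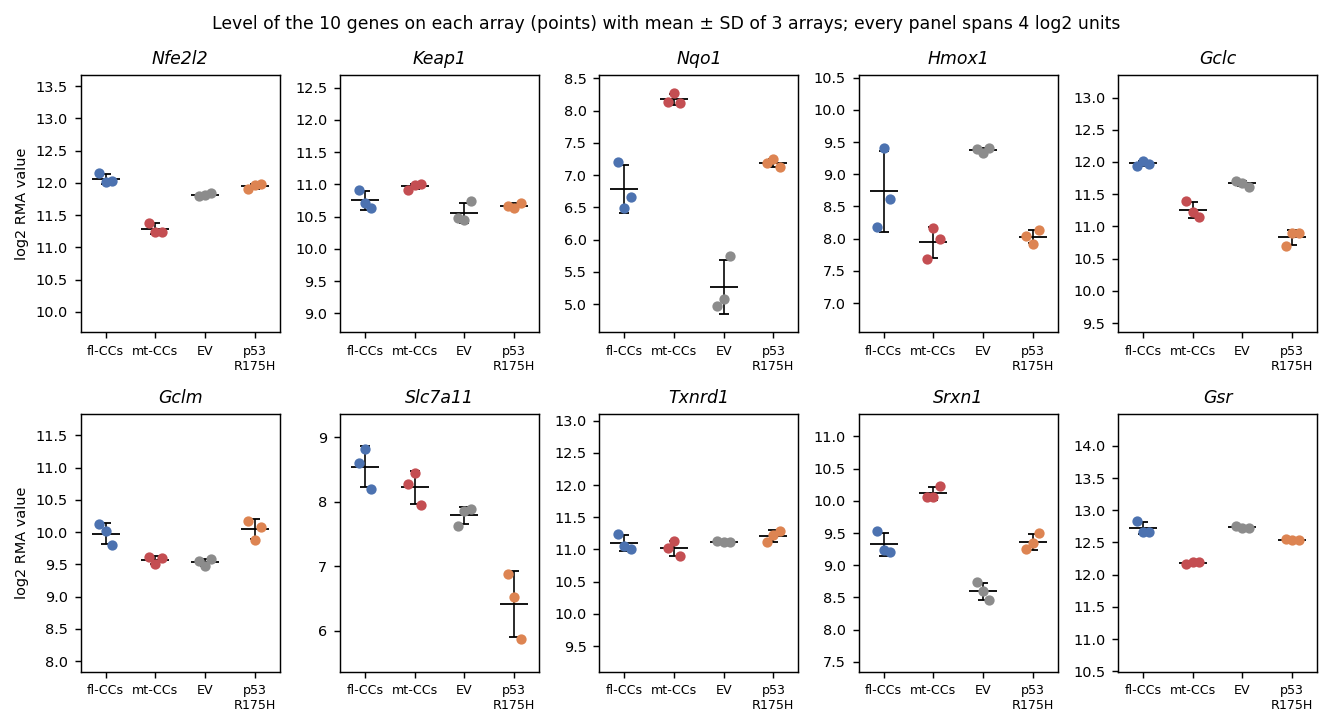
Log2 RMA value (vertical axis, 4 log2 units in every panel) of each of the 10 genes at its brightest probe set, for 3 arrays (points) in fl-CCs, mt-CCs, EV and p53 R175H, with mean and SD (bars). Nqo1 and Srxn1 were highest in mt-CCs and lowest in EV, Slc7a11 was lowest in p53 R175H, and Txnrd1 lay near 11 on every array.

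Nfe2l2, which encodes NRF2, was lower in mt-CCs and not called with p53 R175H. Its brighter probe set (1416543_at) read 12.16, 12.01 and 12.04 in fl-CCs and 11.38, 11.24 and 11.24 in mt-CCs. In EV the same probe set read 11.80, 11.81 and 11.84, and in p53 R175H 11.90, 11.96 and 11.98. All mt-CCs arrays were thus below the other 9. The difference was -0.78 ± 0.08 (adjusted p = 9.747e-06) in mt-CCs, a 1.72-fold lower level, and 0.13 ± 0.08 (adjusted p = 0.2976; 95% interval -0.04 to 0.31) with p53 R175H. The effects in the 2 settings differed by -0.91 ± 0.11 (adjusted p = 6.689e-05). EV lay at -0.25 ± 0.08 against fl-CCs (adjusted p = 0.06103), a difference that was called in the fit without mt-CCs replicate 1 (adjusted p = 0.04987). It was also called in the unmoderated model (adjusted p = 0.01641), with an intensity trend (0.00482), with array weights (0.04299) and with a filter on dim probe sets (0.0234). A dim probe set (1457117_at), with 3 mt-CCs and 5 other arrays near background, had no call.

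Keap1, the substrate adaptor that targets NRF2 for degradation, was called in no comparison. Its bright probe set (1450746_at) read 10.91, 10.71 and 10.63 in fl-CCs, 10.92, 10.99 and 11.00 in mt-CCs, 10.48, 10.44 and 10.74 in EV, and 10.67, 10.64 and 10.71 in p53 R175H. The groups fl-CCs and mt-CCs did not overlap, yet the difference of 0.22 ± 0.10 missed the threshold (adjusted p = 0.1341; 95% interval -0.003 to 0.44). With array weights it was 0.27 and just called (adjusted p = 0.04937). With p53 R175H the interval ran from -0.10 to 0.34.

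Nqo1, the quinone reductase often read as an index of NRF2 activity, rose in both settings and fell in EV. Its single probe set (1423627_at) read 8.13, 8.27 and 8.12 in mt-CCs and 7.20, 6.49 and 6.66 in fl-CCs. It read 4.98, 5.08 and 5.75 in EV, with 1 of 3 arrays near background, and 7.18, 7.26 and 7.12 in p53 R175H. The mt-CCs arrays were the highest and the EV arrays the lowest of all 12, while p53 R175H overlapped fl-CCs. Relative to fl-CCs, Nqo1 was 2.63-fold higher in mt-CCs (1.40 ± 0.20, adjusted p = 0.0001958), and relative to EV it was 3.79-fold higher in p53 R175H (1.92 ± 0.20, adjusted p = 4.331e-05). EV lay 2.86-fold below fl-CCs (-1.51 ± 0.20, adjusted p = 0.0004895). Against fl-CCs, p53 R175H differed by 0.41 ± 0.20, which was not called (adjusted p = 0.2279; 95% interval -0.04 to 0.85). The effects in the 2 settings differed by -0.52 ± 0.29, with a 95% interval of -1.15 to 0.10 (adjusted p = 0.2221); without EV replicate 3, the highest of its group, this became -0.77 and was called (adjusted p = 0.0322).

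Srxn1, sulfiredoxin, which restores peroxiredoxins after overoxidation, had the same order of groups as Nqo1. Its brightest probe set (1419942_at) read 9.53, 9.24 and 9.20 in fl-CCs and 10.05, 10.06 and 10.23 in mt-CCs. It read 8.73, 8.60 and 8.47 in EV and 9.25, 9.35 and 9.50 in p53 R175H. Here too, mt-CCs were above and EV below all other arrays, and p53 R175H lay within the range of fl-CCs. The differences were 0.79 ± 0.11 in mt-CCs (adjusted p = 0.0001795), 0.77 ± 0.11 with p53 R175H (adjusted p = 0.0005303) and -0.73 ± 0.11 for EV against fl-CCs (adjusted p = 0.001457). Against fl-CCs, p53 R175H differed by 0.04 ± 0.11 (adjusted p = 0.8758; 95% interval -0.21 to 0.29). Probe sets 1426875_s_at and 1451680_at gave 0.71 and 0.67 in mt-CCs and 0.73 and 0.84 with p53 R175H, all called. The dim probe set 1425351_at was not called in mt-CCs (0.18 ± 0.15, adjusted p = 0.4226) and was higher by at least 0.50 log2 with p53 R175H, since all 3 EV arrays were near background. It alone gave the call for a difference between the 2 settings (-0.71 ± 0.22 as measured, adjusted p = 0.02803). That value has no exact size, since it rests on those EV arrays, and its call was lost without any 1 of mt-CCs replicates 1 and 3, fl-CCs replicate 2, EV replicate 2, and p53 R175H replicates 2 and 3 (adjusted p = 0.05174 to 0.06797).

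**Figure D2:**
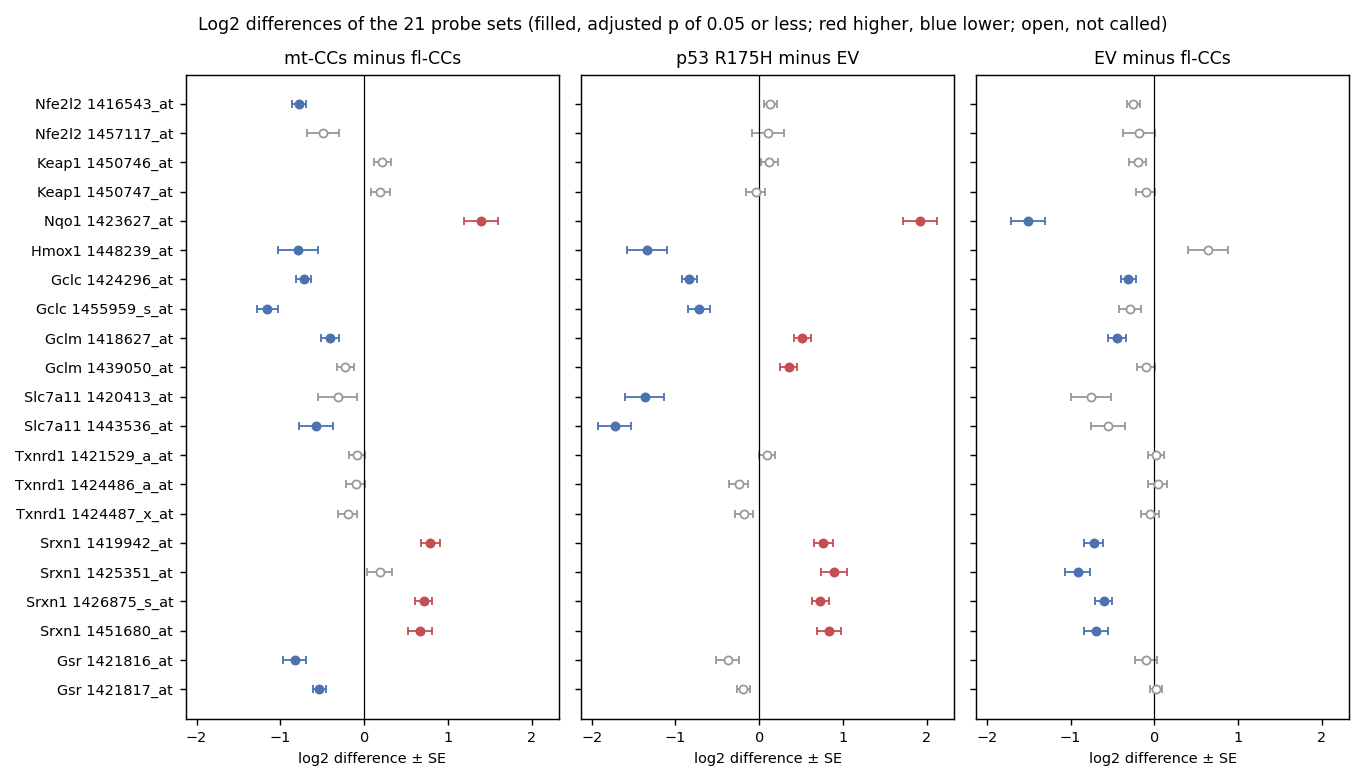
Log2 difference ± SE (horizontal axis) of each of the 21 probe sets (rows) in mt-CCs minus fl-CCs, p53 R175H minus EV and EV minus fl-CCs; filled points had an adjusted p of 0.05 or less. Of 21 probe sets, 4 were higher and 8 lower in mt-CCs, 7 higher and 5 lower with p53 R175H, and 0 higher and 7 lower in EV. Of all 45037 probe sets, 13812, 9163 and 5452 were called in these comparisons, in that order and in either direction.

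Hmox1, heme oxygenase 1, which degrades heme and is driven by NRF2 and held down by BACH1, moved the other way from Nqo1. It read 8.18, 9.41 and 8.61 in fl-CCs and 7.68, 8.16 and 7.99 in mt-CCs at its probe set (1448239_at). In EV it read 9.39, 9.32 and 9.40, and in p53 R175H 8.04, 7.92 and 8.13. The p53 R175H arrays were all more than 1 log2 unit below EV, whereas the fl-CCs arrays spread over more than 1 log2 unit and reached the EV level on 1 array. Hmox1 was 2.53-fold lower in p53 R175H than in EV (-1.34 ± 0.24, adjusted p = 0.001793) and 1.73-fold lower in mt-CCs than in fl-CCs (-0.79 ± 0.24, adjusted p = 0.02445). The latter call was lost in a fit of only these 2 groups (adjusted p = 0.08432) and in the unmoderated model (adjusted p = 0.06803). It was also lost without the high second fl-CCs array (-0.45, adjusted p = 0.05624), and also without mt-CCs replicate 1 (-0.66, adjusted p = 0.09359) or replicate 3 (-0.81, adjusted p = 0.05217). EV against fl-CCs was 0.64 ± 0.24 (adjusted p = 0.1133), with overlapping groups, and 0.98 without that second fl-CCs array (adjusted p = 0.00296). Against fl-CCs, p53 R175H differed by -0.70 ± 0.24 (adjusted p = 0.07184), and by -0.98 without fl-CCs replicate 1 (adjusted p = 0.01197). The effects in the 2 settings differed by 0.55 ± 0.34 (adjusted p = 0.2802), and by 0.89 without fl-CCs replicate 2 (adjusted p = 0.009522).

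Gclc, the catalytic subunit of glutamate-cysteine ligase and the rate-limiting step of glutathione synthesis, was lower with mutant p53 in both settings at both probe sets. Probe set 1424296_at read 11.94, 12.02 and 11.97 in fl-CCs, 11.39, 11.23 and 11.15 in mt-CCs, 11.71, 11.67 and 11.62 in EV, and 10.69, 10.89 and 10.90 in p53 R175H. No 2 groups overlapped, and p53 R175H was lowest. The differences were -0.72 ± 0.09 in mt-CCs (adjusted p = 5.921e-05) and -0.84 ± 0.09 with p53 R175H (adjusted p = 5.267e-05). They differed from each other by 0.11, with a 95% interval of -0.17 to 0.40 (adjusted p = 0.5915). Against fl-CCs, p53 R175H was 2.22-fold lower (-1.15 ± 0.09, adjusted p = 1.019e-05), and EV differed from fl-CCs by -0.31 ± 0.09 (adjusted p = 0.04442). This last call was lost in 9 of the 12 fits that left out 1 array, those without mt-CCs replicate 2, p53 R175H replicate 2 or 3, or any fl-CCs or EV array (adjusted p = 0.05579 to 0.1305). The second probe set (1455959_s_at) read 11.01, 11.16 and 11.04 in fl-CCs, 9.59, 10.14 and 10.03 in mt-CCs, 10.82, 10.81 and 10.72 in EV, and 9.93, 10.18 and 10.07 in p53 R175H. Its difference was -1.15 ± 0.13 in mt-CCs (adjusted p = 2.464e-05) and -0.72 ± 0.13 with p53 R175H (adjusted p = 0.001946). For EV against fl-CCs it gave -0.29 ± 0.13, which was not called (adjusted p = 0.2015). Between the settings this probe set gave -0.43 ± 0.18 (adjusted p = 0.1154), and -0.54 without mt-CCs replicate 2 (adjusted p = 0.04675).

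Gclm, the modifier subunit of the same ligase, did not follow Gclc. Probe set 1418627_at read 10.13, 10.01 and 9.79 in fl-CCs and 9.61, 9.50 and 9.60 in mt-CCs. It read 9.55, 9.47 and 9.58 in EV and 10.17, 9.89 and 10.09 in p53 R175H. The mt-CCs and EV arrays thus shared a low range, and the fl-CCs and p53 R175H arrays a high one. Gclm was lower in mt-CCs (-0.41 ± 0.10, adjusted p = 0.01052), higher with p53 R175H (0.51 ± 0.10, adjusted p = 0.004271) and lower in EV than in fl-CCs (-0.44 ± 0.10, adjusted p = 0.01654). The EV call was lost without fl-CCs replicate 1 or 2 or EV replicate 2 (adjusted p = 0.05326 to 0.06301). The effects in the 2 settings differed by -0.92 ± 0.15 (adjusted p = 0.0005414). At probe set 1439050_at that difference was -0.57 ± 0.15 (adjusted p = 0.01383), with 0.35 ± 0.11 for p53 R175H (adjusted p = 0.03764) and -0.22 ± 0.11 for mt-CCs, which was not called (adjusted p = 0.1468). Nor was EV against fl-CCs called at that probe set (-0.10 ± 0.11, adjusted p = 0.6517), and those groups overlapped there.

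Gsr, glutathione reductase, which regenerates reduced glutathione with NADPH, was lower in mt-CCs. Probe set 1421817_at read 12.83, 12.67 and 12.66 in fl-CCs, 12.17, 12.20 and 12.19 in mt-CCs, 12.76, 12.72 and 12.73 in EV, and 12.55, 12.53 and 12.55 in p53 R175H. The groups mt-CCs and p53 R175H each stood apart below their controls, p53 R175H by the smaller step. The differences were -0.53 ± 0.08 in mt-CCs (adjusted p = 0.0001483) and -0.19 ± 0.08 with p53 R175H, which was not called (adjusted p = 0.1007). The effects differed by -0.34 ± 0.11 (adjusted p = 0.0315), a call that was lost without any 1 array other than fl-CCs replicates 2 and 3 (adjusted p = 0.05075 to 0.06768). The other probe set (1421816_at) gave -0.83 ± 0.13 in mt-CCs (adjusted p = 0.0004562), and -0.45 ± 0.19 between the settings (adjusted p = 0.1071). There, p53 R175H lay at -0.48 ± 0.13 against fl-CCs (adjusted p = 0.03363), not called without fl-CCs replicate 1 or 2 or any p53 R175H array (adjusted p = 0.0548 to 0.1086). Against EV it lay at -0.38 ± 0.13 (adjusted p = 0.07111), called without fl-CCs replicate 1 (adjusted p = 0.02546).

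Txnrd1, the cytosolic thioredoxin reductase, was called at none of its 3 probe sets in any comparison. At the brightest (1421529_a_at) it read 11.24, 11.05 and 11.01 in fl-CCs, 11.02, 11.13 and 10.90 in mt-CCs, 11.13, 11.11 and 11.11 in EV, and 11.11, 11.23 and 11.29 in p53 R175H. All 4 groups overlapped. The 95% interval of the difference was -0.29 to 0.12 in mt-CCs and -0.11 to 0.30 with p53 R175H.

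Slc7a11, the cystine importer, showed the lowest levels in p53 R175H at both probe sets. At 1443536_at it read 7.79, 7.82 and 8.09 in EV and 6.42, 5.97 and 6.13 in p53 R175H. At 1420413_at it read 7.63, 7.85 and 7.88 in EV and 6.88, 6.52 and 5.87 in p53 R175H. In fl-CCs the values were 8.43, 8.79 and 8.14 at the former and 8.61, 8.83 and 8.20 at the latter. In mt-CCs they were 7.73, 8.28 and 7.64 at the former and 8.27, 8.46 and 7.95 at the latter, overlapping fl-CCs at both. With p53 R175H, Slc7a11 was 3.31-fold lower than in EV at 1443536_at (-1.73 ± 0.20, adjusted p = 8.3e-05) and 2.58-fold lower at 1420413_at (-1.37 ± 0.24, adjusted p = 0.00142). Against fl-CCs, p53 R175H was 4.86-fold lower at the former (-2.28 ± 0.20, adjusted p = 2.095e-05). EV lay between, at -0.55 ± 0.20 (adjusted p = 0.09953) and -0.75 ± 0.24 (adjusted p = 0.05858) against fl-CCs, the latter called without fl-CCs replicate 3 or p53 R175H replicate 1 or 3 (adjusted p = 0.02084 to 0.03996). In mt-CCs the difference was -0.57 ± 0.20 at 1443536_at (adjusted p = 0.04718) and -0.32 ± 0.24 at 1420413_at (adjusted p = 0.3655). The call in mt-CCs was lost in the fits without any 1 of fl-CCs replicate 1 or 2, mt-CCs replicate 1 or 3, an EV array, or p53 R175H replicate 2 or 3 (adjusted p of 0.1835 without fl-CCs replicate 2). It was also lost in a fit of only these 2 groups (adjusted p = 0.09162), in the unmoderated model (adjusted p = 0.1012) and with array weights (adjusted p = 0.1044). The effects in the 2 settings differed by 1.15 ± 0.28 (adjusted p = 0.008857) and by 1.05 ± 0.33 (adjusted p = 0.03462) at the 2 probe sets.

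Because Slc7a11 is shared with the amino acid response, 14 other genes of that response were read beside it, ATF4 itself and enzymes and transporters that supply amino acids among them. With p53 R175H, 9 of 14 were lower than in EV and 0 higher, beside 15.1% and 15.3% of all genes, with a median of -0.61. They were Atf4 (-0.62 ± 0.09, adjusted p = 0.0003031), the amino acid transporters Slc1a4 (-0.76 ± 0.12, adjusted p = 0.0007184) and Slc7a5 (-0.71 ± 0.14, adjusted p = 0.003171), Asns, Psat1, Shmt2, Sesn2, Trib3 and Ddit3. At a brighter Atf4 probe set the means were closer, 11.69 in p53 R175H and 11.76 in EV. Ddit3, which encodes the stress factor CHOP, differed by -0.74 ± 0.19 (adjusted p = 0.01397). EV against fl-CCs called 0 of the 14 in either direction, and p53 R175H against fl-CCs called 11 lower and 0 higher, beside 11.5% and 12.5% of all genes. In mt-CCs the list was split, with 4 higher and 5 lower, beside 22.2% and 21.1% of all genes, and a median of -0.13. Ddit3 (1.45 ± 0.19), Trib3 (0.80 ± 0.15) and the serine synthesis enzyme Phgdh (0.50 ± 0.13) rose most, and the transsulfuration enzymes Cbs (-1.64 ± 0.15) and Cth (-0.90 ± 0.19), which make cysteine from homocysteine, fell together with Sesn2 (-1.06 ± 0.14). The difference between the settings was positive for 7 and negative for 1, beside 20.1% and 19.3% of all genes. Of the 12 genes of this list with a promoter window, 4 held TGATGNAA, as did 4.51% of the 27025 genes with one.

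**Figure D3:**
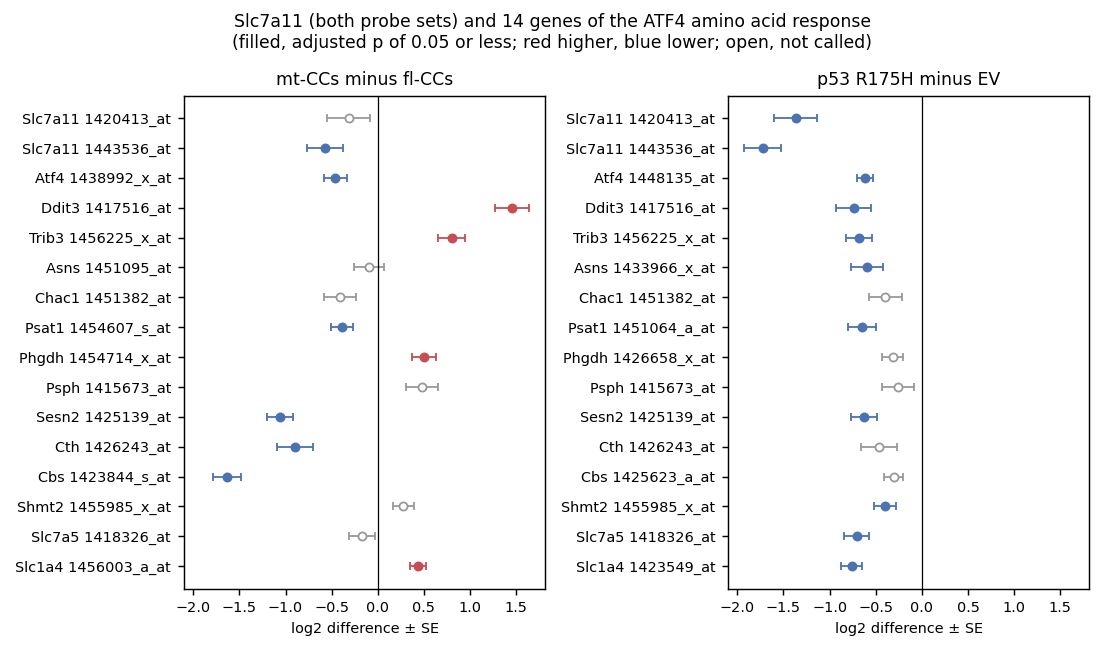
Log2 difference ± SE (horizontal axis) of Slc7a11 at its 2 probe sets and of 14 genes of the ATF4 amino acid response at the probe set of lowest adjusted p, in mt-CCs minus fl-CCs (left) and p53 R175H minus EV (right); filled points had an adjusted p of 0.05 or less. With p53 R175H all 9 called genes of the list lay below 0, beside 15.1% of all genes lower and 15.3% higher. In mt-CCs 4 lay above and 5 below, beside 22.2% higher and 21.1% lower.

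The rest of the program was read from lists of 100 measured genes, these 14 included. The counts for each list stand against 22.2% of all genes higher and 21.1% lower in mt-CCs, 15.3% and 15.1% with p53 R175H, and 10.4% and 9.2% in EV against fl-CCs. Of 12 other regulators of NRF2, 6 were higher and 2 lower in mt-CCs (median 0.14), and 3 higher and 5 lower with p53 R175H (median -0.22). Bach1, the repressor of Hmox1, was higher in both, by 0.91 ± 0.13 in mt-CCs (adjusted p = 0.0001439) and, at another probe set, by 0.90 ± 0.11 with p53 R175H (adjusted p = 0.0001053). Of the small MAF partners in mt-CCs, Mafg was higher (0.74 ± 0.09) and Mafk lower (-0.92 ± 0.09). Cul3, the ubiquitin ligase scaffold that works with KEAP1, was lower with p53 R175H at 1 probe set (-0.79 ± 0.11), where EV was itself above fl-CCs (0.66 ± 0.11, adjusted p = 0.002295). At a brighter Cul3 probe set the means were 11.98 in p53 R175H, 12.10 in EV and 11.91 in fl-CCs. Nfe2l1, a relative of NRF2, was likewise lower in p53 R175H than in EV (-0.64 ± 0.10) and higher in EV than in fl-CCs (0.50 ± 0.10, adjusted p = 0.005112), and p53 R175H against fl-CCs was not called (-0.14 ± 0.10, adjusted p = 0.4009).

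Genes of xenobiotic conjugation and export, many of them known NRF2 targets, made the largest list, and 0 of 27 were higher and 14 lower in EV than in fl-CCs, beside 10.4% and 9.2% of all genes, with a median of -0.30. With p53 R175H, 11 were higher than in EV and 4 lower, beside 15.3% and 15.1%, with a median of 0.14. Set against the parental fl-CCs, p53 R175H had 2 higher and 12 lower, beside 12.5% and 11.5% of all genes, with a median of -0.24. In mt-CCs 8 were higher and 16 lower, beside 22.2% and 21.1%, with a median of -0.39. The counts in mt-CCs and with p53 R175H hold Abcc2, which was near background on every array. The aldehyde dehydrogenase Aldh3a1 was highest in mt-CCs and lowest in EV, as Nqo1 was, with group means of 11.82 in mt-CCs, 10.99 in fl-CCs, 10.96 in p53 R175H and 9.53 in EV. It rose by 0.83 ± 0.11 in mt-CCs (adjusted p = 8.97e-05) and by 1.43 ± 0.11 with p53 R175H (adjusted p = 3.096e-06), and EV lay at -1.46 ± 0.11 (adjusted p = 6.226e-06). The glutathione transferase Gstm2 rose by 1.85 ± 0.11 in mt-CCs, whereas its relatives Gstt1 (-2.04 ± 0.11) and Gsta3 (-1.62 ± 0.21) fell there. The carbonyl reductase Cbr3 rose with p53 R175H (1.27 ± 0.13) and lay at -1.94 ± 0.13 in EV against fl-CCs (adjusted p = 2.93e-06), while Cbr1 fell with p53 R175H (-0.47 ± 0.10).

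In the glutathione list, 4 of 14 genes were higher and 3 lower in mt-CCs, near the 22.2% and 21.1% of all genes, led by the peroxidases Gpx8 (4.27 ± 0.14), Gpx3 (1.89 ± 0.13) and Gpx1 (0.97 ± 0.08). With p53 R175H, 4 were higher and 5 lower, beside 15.3% and 15.1%, with Gpx8 at 1.31 ± 0.14 and Gpx3 at -0.70 ± 0.13, both called. EV was itself above fl-CCs for both, by 1.58 ± 0.14 (adjusted p = 2.148e-05) and 0.53 ± 0.13 (adjusted p = 0.02127). Against the same shares, 1 of 10 thioredoxin and peroxiredoxin genes was higher and 2 were lower in mt-CCs. The 2 lower, Txn1 and Prdx4, were called at dim probe sets, with mt-CCs means of 5.697 and 4.729. At a brighter Txn1 probe set the means were 13.073 in mt-CCs and 12.996 in fl-CCs. At a brighter Prdx4 probe set they were 10.471 and 10.275. Against those shares, 3 genes were higher and 3 lower with p53 R175H. There Prdx4, the peroxiredoxin of the endoplasmic reticulum, rose by 1.40 ± 0.09. At the brighter Prdx4 probe set EV was itself below fl-CCs (-0.59 ± 0.09, adjusted p = 0.001158). The means there were 9.680 in EV and 10.945 in p53 R175H. NADPH supply held 0 higher and 4 lower of 8 genes in mt-CCs (median -0.36), and 1 higher and 3 lower with p53 R175H (median -0.20). Malic enzyme Me1 fell in both, by 2.01 and by 0.90 on the log2 scale (SE 0.09 each).

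Among 10 genes of heme and iron handling, 5 were higher and 3 lower in mt-CCs, beside 22.2% and 21.1% of all genes, and 1 was higher and 2 lower with p53 R175H, near the 15.3% and 15.1% of all genes. The transferrin receptor Tfrc was lower in both (-1.99 ± 0.08 and -1.28 ± 0.08), and the iron exporter Slc40a1 was lower in mt-CCs (-1.56 ± 0.12). Blvrb, a biliverdin reductase that acts after heme oxygenase, was higher in mt-CCs (1.23 ± 0.13). Against the same shares, of 5 genes that remove superoxide and hydrogen peroxide, 2 were higher and 1 lower in mt-CCs, and 3 higher and 1 lower with p53 R175H. Of the 2 higher in mt-CCs, Sod3 was near background in both groups, and Sod2 had overlapping groups. Catalase, Cat, was lower in mt-CCs (-0.90 ± 0.14) and, at another probe set, higher with p53 R175H (0.57 ± 0.11).

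**Figure D4:**
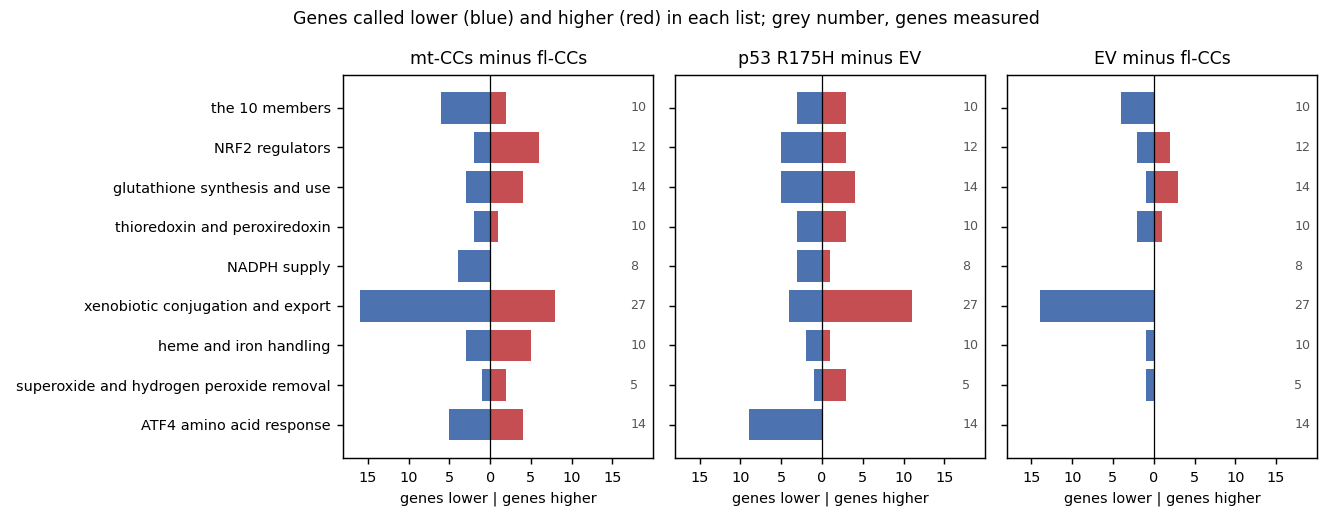
Number of genes called lower (blue, to the left) and higher (red, to the right) among the 10 genes and 8 pathway lists (rows), in mt-CCs minus fl-CCs, p53 R175H minus EV and EV minus fl-CCs; the grey number is how many genes of the list were measured. The ATF4 list had 9 lower and 0 higher genes with p53 R175H, beside 15.1% and 15.3% of all genes. The xenobiotic list had 14 lower and 0 higher in EV, beside 9.2% and 10.4% of all genes.

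The 3 genes whose group means spread most were Nqo1 (2.91 log2), Slc7a11 (2.12) and Srxn1 (1.52), and for each the genes with the nearest pattern were sought among 12380 others, by the root mean square difference of centred log2 values over 12 arrays. For Nqo1 these were Fam20a (0.28), Id1 (0.36) and Aldh3a1 (0.36). For Slc7a11 they were Trim47 (0.37), Gas2l3 (0.41) and Fkbp5 (0.43). For Srxn1 they were Sqor (0.099), Cenpe (0.12) and Ptpn1 (0.13), closer than any found for the other 2. The distance was not scaled to the spread of each gene, which was smallest for Srxn1 among these 3. Sqor, a mitochondrial sulfide oxidizing enzyme, had means of 12.3 in mt-CCs, 11.5 in fl-CCs, 11.5 in p53 R175H and 10.8 in EV.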

How the data were processed

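The submitters hybridized RNA of 12 cultures, biological triplicates per the study's methods, and deposited log2 RMA values of 45101 probe sets; the background correction, quantile normalization and summary are the authors'. No scanner files were used here. Probe sets were named through the platform annotation, in which 34945 had 1 gene symbol, 932 several and 9160 none. The 64 control probe sets were left out, and 45037 were tested with limma 3.58.1 in R 4.3.3. One fit with a mean per group covered all 12 arrays, with eBayes moderation (8 residual degrees of freedom) and Benjamini-Hochberg adjustment, called at 0.05 with no fold limit. A gene was counted at the probe set with the smallest adjusted p, which favors genes with several probe sets. RMA compresses low values, so differences of dim probe sets are understated, and 3 arrays a group limit the precision. Where all arrays of a group were under log2 5, "at least" gives the brighter mean minus 5. The genes and lists were chosen with earlier results of these data known. The genes named in the lists were taken from the up to 3 that rose and 3 that fell most in mt-CCs. With p53 R175H they were taken from the up to 2 each way. Candidates were called genes with a mean of at least log2 5 in the brighter group, and not all candidates are named. The other ATF4 list genes called with p53 R175H, and the list genes' values in EV, were named after they were seen. Replicate numbers did not pair the arrays. Lists of acinar and endocrine markers, also read, showed 1 of 3 and 0 of 3 measured genes higher in mt-CCs and 0 lower, beside 22.2% and 21.1% of all genes. The 1 higher gene, Prss2, was near background on every array. The fit was tested on simulated data. Alternatives were another choice of probe set, array weights, an intensity trend, an unmoderated model, a filter on dim probe sets, further centring or quantile normalization, a fold limit, only the groups compared, a replicate block, and each array left out.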

Additional observations from a re-analysis of the deposited data

Results flagged for a closer look

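For 5 of the 10 genes, the effect of mutant p53 in the tumor-derived lines (mt-CCs minus fl-CCs) differed from that after transfection (p53 R175H minus EV) by the limma test of the difference itself, which also called 20.1% of all genes in the positive and 19.3% in the negative direction, so that the count lies near that of all genes. The difference was -0.91 for Nfe2l2 (adjusted p = 6.689e-05), which was lower in mt-CCs, and -0.92 for Gclm (adjusted p = 0.0005414), which was lower in mt-CCs and higher with p53 R175H. For Slc7a11 it was 1.15 (adjusted p = 0.008857), since the fall was the deeper one with p53 R175H. For Gsr it was -0.34 (adjusted p = 0.0315), a call lost in 10 of the 12 fits that left out 1 array. For Srxn1 it was -0.71 as measured (adjusted p = 0.02803) at the dim probe set 1425351_at, where all 3 EV arrays were near background, so that the size is not exact. That call was lost in 6 of the 12 fits, and the other 3 probe sets of Srxn1 gave 0.02, -0.02 and -0.17, none of them called. The settings also differ in cell line, vector and G418, which cannot be told apart from the form of mutant p53.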

How the results depend on the processing

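With a limit of 1 on the absolute log2 difference, 1 of the 10 genes was higher and 1 lower in mt-CCs, 1 higher with p53 R175H, 1 lower in EV than in fl-CCs, and 0 negative in the difference between settings. The share of all genes was not counted under this limit, nor in the fits below that left out 1 array. Nfe2l2 and Slc7a11 were called lower in EV than in fl-CCs with an intensity trend (adjusted p = 0.00482 and 0.02418). The filter on dim probe sets gave both calls too (adjusted p = 0.0234 and 0.03626). Leaving out 1 array at a time gave 0 to 1 genes higher and 2 to 5 lower in EV than in fl-CCs, with 2 lower without fl-CCs replicate 1, fl-CCs replicate 2 or EV replicate 2, and 1 higher (Hmox1) without fl-CCs replicate 2. For the difference between settings it gave 1 to 2 positive (Hmox1 joining at 0.89 without fl-CCs replicate 2) and 2 to 4 negative, with 2 without mt-CCs replicate 1 or 3, EV replicate 2, or p53 R175H replicate 2 or 3, as Srxn1 and Gsr lost their calls. At its brightest probe set, the difference between settings of Srxn1 turned to 0.0246 (adjusted p = 0.9379). The counts of genes higher and lower in mt-CCs, with p53 R175H, and in p53 R175H against fl-CCs stayed within 1.5 times under the other alternatives run. Over all genes, comparisons and alternatives, 1005 values kept direction and side of the threshold, 60 lost the call, 24 gained one and 1 reversed; the cause was not tested. Arrays with the same number correlated at -0.147 to 0.0744 in their deviations from the group means, so the numbers do not pair them. With a replicate block, 13288 probe sets were called in mt-CCs, against 13812 without, and 8527 with p53 R175H, against 9163. It dropped the calls of Slc7a11 in mt-CCs (-0.57, adjusted p = 0.06002), Gclc in EV against fl-CCs (-0.31, adjusted p = 0.07778), Gsr in the difference between settings (-0.34, adjusted p = 0.05358) and Gsr in p53 R175H against fl-CCs (-0.48, adjusted p = 0.05747), while Slc7a11 in EV against fl-CCs gained one (-0.75, adjusted p = 0.03186). Array number and RMA compression near background limit what could be detected.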
